A study of Mus musculus with 5 samples.

Results

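The general actin machinery of the cell was examined as 41 genes taken by symbol: the non-muscle actins, the proteins that bind, cut, branch and cross-link actin filaments, non-muscle myosin and its light chains, focal adhesion proteins, the linkers between actin and the plasma membrane, and vimentin. All 41 were listed in every library, out of 14156 named genes listed in any library. The smooth muscle actins are not among them, but Cald1, Mylk and Smtn, whose products also serve in smooth muscle contraction, are. The data are RNA-seq of cultured mouse cells labelled bone mesenchymal stem cells, the marrow stromal cells that can give rise to bone, cartilage and fat. The cells were grown from femur marrow of C57BL/6 mice 6 to 8 weeks old and taken at passages 1 to 3. There were 3 libraries of Bmal1-knockout cells, called knockout 1, 2 and 3 here, and 2 libraries of wild type cells, wild type 1 and 2. BMAL1, the product of Arntl, is the partner of CLOCK in the core circadian transcription factor, and the design asks which genes it regulates in these cells. The sources used here do not say which part of the gene was removed, whether it was absent from every tissue of the mice, or whether animals were pooled. They also do not say whether the libraries of a group came from separate mice or cultures, so p-values measure the spread between these libraries, which may be technical.

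Actin monomers join into filaments at one end and leave at the other, and the cell sets the balance with proteins that hold monomers in reserve (thymosins), feed them to the growing end (profilin), sever old filaments (cofilin, gelsolin) or start branches (the Arp2/3 complex). Filaments decorated with tropomyosin and caldesmon, cross-linked by alpha-actinin and filamin and pulled by non-muscle myosin form the stress fibres of spread mesenchymal cells, which end on focal adhesions, where talin and vinculin join them to integrins. Leukocytes use the same core but favour branched networks, with coronin 1A and the bundling protein L-plastin.

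Expected counts summed to 226695, 237088 and 281990 in knockout 1, 2 and 3 and to 243072 and 211623 in wild type 1 and 2, and the 41 genes took 1.19% to 1.42%. Levels are given as CPM, the counts divided by the scaled total of tested genes and expressed per 1e6, and on this scale a count of 0 in a library allows up to 12.1 to 15.9 CPM (3 counts). Arntl counts were 4, 1 and 2 in knockout 1, 2 and 3 against 5 and 0 for wild type, too few to check the labels. Libraries of the same group differed by more than counting noise, so none was treated as a copy of another. The 20 listed fibroblast and stromal markers summed to 16682 to 18040 CPM in the knockout and 6897 to 6915 CPM in the wild type libraries. Col3a1 alone stood at 4657 to 5093 CPM against 1809 to 1940 CPM. Of the 15 tested, 10 rose in the test described below, where 8.19% of all tested genes rose and 8.14% fell. The 5 that did not pass were Dcn (log2 fold change 1.01), Vcam1 (0.82), Prrx1 (0.39), Pdgfrb (0.15) and Pdgfra (−0.34). Of the mesenchymal markers on this list, Cxcl12 rose and stood at 287 to 778 CPM over the 5 libraries. Prrx1 stood at 95.7 to 204 CPM and Pdgfra at 57.7 to 117 CPM. Eng, Lepr and Thy1 were too low to test. Eng stood at 21.3 to 38.0 CPM, Lepr was at 0 in wild type 1 and Thy1 was at 0 in 3 libraries and at most 14.1 CPM. The 20 macrophage and monocyte markers, all tested, summed to 11804 to 13130 CPM in the knockout and 19182 to 19821 CPM in the wild type libraries, and 11 fell. Most of this sum was Lyz2, at 6532 to 7091 CPM against 10582 to 10951 CPM. The 9 that did not pass were Tyrobp, Cd53, Fcgr3, C1qb, Fcer1g, Laptm5, Aif1, C1qc and Mrc1. Their log2 fold changes ran from −0.63 for Tyrobp to 0.18 for Mrc1, the only value above 0. Of 10 markers shared by all leukocytes, 7 were tested and 2 fell, and their sum was 825 to 927 CPM against 1302 to 1386 CPM. Osteoclast markers summed to 449 to 537 CPM against 819 to 883 CPM, with Mmp9 alone at 274 to 385 CPM against 479 to 537 CPM. Megakaryocyte markers summed to 207 to 243 CPM against 377 to 399 CPM, with Pf4 alone at 207 to 239 CPM against 335 to 362 CPM. In these lists, 3 of 7 and 2 of 5 genes were not listed in any library. Endothelial markers summed to 147 to 183 CPM against 181 to 202 CPM, and the summed neutrophil, lymphocyte and erythroid markers stayed under 100 CPM in every library, with 6 of 9, 4 of 10 and 6 of 7 genes not listed in any. These marker levels move with genotype, and their part in the results below was not tested. In bulk RNA, fewer cells of a type and less RNA per cell cannot be told apart.

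Some members carry sequences in their promoters or coding regions that bear on the comparison, and these are shown first. The CLOCK and BMAL1 dimer is known to bind the E-box CACGTG, a palindrome that reads the same on both strands. Serum response factor (SRF), which with its actin-sensing cofactors is known to drive many cytoskeletal genes, binds the CArG box. RefSeq windows ran from 250 bases before to 50 bases after the start site (GRCm38.p6, the assembly of mm10). Of the 41 genes, 39 matched, with 50 windows in all since 9 genes have several start sites, and both strands were searched. Actb and Pxn had no window and were not searched, so nothing is known here of motifs in their promoters. The E-box was present in 4 of them, Actg1, Arpc5, Msn and Myl12a, or 10.3%, against 8.09% of all genes with a window and 12.4% of the tested genes with one. The CArG box was present in 3, Actg1, Myl6 and Vcl, or 7.69%, against 1.81% of all genes and 2.02% of tested genes. The stretches that hold them are printed below 5′ to 3′ on the gene's strand, with the motifs in capitals. The Actg1 stretch holds both, the E-box starting 141 and the CArG box 90 bases before the start site. Myl6 has 2 windows, and its CArG box lies in the one at the inner start site, downstream of the gene's first start.
Actg1 (chr11:120348546-120348666, minus strand): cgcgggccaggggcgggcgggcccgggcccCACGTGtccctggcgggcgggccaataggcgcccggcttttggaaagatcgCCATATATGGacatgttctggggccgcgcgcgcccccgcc
Myl6 (chr10:128493020-128493089, minus strand): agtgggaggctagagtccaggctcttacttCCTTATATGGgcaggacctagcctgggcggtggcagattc
Vcl (chr14:20929148-20929210, plus strand): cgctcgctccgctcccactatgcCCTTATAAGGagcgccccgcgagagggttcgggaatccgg
Msn (chrX:96095876-96095941, plus strand): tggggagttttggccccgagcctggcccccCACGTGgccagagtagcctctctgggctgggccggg
Arpc5 (chr1:152766328-152766393, plus strand): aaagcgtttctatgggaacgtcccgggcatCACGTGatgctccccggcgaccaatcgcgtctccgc
Myl12a (chr17:71002548-71002613, minus strand): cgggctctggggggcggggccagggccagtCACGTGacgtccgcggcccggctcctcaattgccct
None of the 4 genes with an E-box passed the test described below. Of the 3 with a CArG box, Myl6 rose and Actg1 and Vcl did not pass. A match of letters is not a shown binding site.

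Pairs of nearly identical members limit what the counts can tell. Myl12a and Myl12b encode the regulatory light chains of non-muscle myosin, and their coding sequences, taken from GENCODE M21 transcripts, are identical at 501 of 519 bases (96.5%). The first 90 coding bases, with the differing bases in capitals, show long stretches on which a short read fits both genes.
Myl12a: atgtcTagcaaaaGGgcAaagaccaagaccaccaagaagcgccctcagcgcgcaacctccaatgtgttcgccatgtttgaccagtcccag
Myl12b: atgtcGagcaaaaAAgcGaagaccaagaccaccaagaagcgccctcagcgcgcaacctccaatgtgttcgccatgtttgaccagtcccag
The deposited expected counts of these 2 genes were fractional in every library but summed to whole numbers, 65, 49 and 58 for knockout 1, 2 and 3 and 61 and 48 for wild type 1 and 2. Reads were thus shared out between them, and their sum is the safer measure: it came to 312, 233 and 235 CPM in knockout 1, 2 and 3 and 287 and 255 CPM in wild type 1 and 2, with the groups overlapping. The actins of non-muscle cells are less alike at the RNA level, with 1000 of 1128 coding bases identical (88.7%).
Actb: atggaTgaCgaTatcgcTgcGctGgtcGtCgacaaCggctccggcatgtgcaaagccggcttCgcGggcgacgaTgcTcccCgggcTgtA
Actg1: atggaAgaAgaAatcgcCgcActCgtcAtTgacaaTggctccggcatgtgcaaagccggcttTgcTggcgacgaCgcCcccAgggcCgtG
These windows differ at 16 of 90 bases, against 4 of 90 for the light chains. Actg1 instead shares 37.4% of its 50-base words with other transcripts, mostly the gene model Gm12715, and Tmsb10 shares 27.0%, Tpm3 23.2%, Myl12b 19.1%, Myl12a 16.4% and Tpm4 11.7%. The other 35 members share 10% or less.

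Of the 41 genes, 35 had enough counts to be tested and 6 did not (Flnc, Fscn1, Pxn, Tns1, Pdlim7 and Ezr). The test was edgeR's quasi-likelihood test with Benjamini-Hochberg adjustment over all 3710 tested genes, at an adjusted p of 0.05. Cald1, Mylk, Actn1, Tpm4, Flna and Myl6 rose in the knockout, 6 of 35, where 8.19% of all tested genes rose. Tmsb4x, Lcp1 and Tln1 fell, 3 of 35, close to the 8.14% of all tested genes that fell. The other 26 did not pass. The median log2 fold change of the 35 was 0.05, with a range of −0.63 to 1.28, beside a median of 0.01 over all tested genes, and 23 values lay above 0 and 12 below. All 3 knockout libraries lay above both wild type libraries for 11 of the 35, where 21.2% of all tested genes did so, and below both for 6, where 21.6% did. The summed level of all 41 was 14734 ± 628 CPM (SD, n = 3) in the knockout and 13909 ± 436 CPM (SD, n = 2) in the wild type libraries, and the lowest knockout library, at 14285 CPM, lay just above the higher wild type library, at 14217 CPM.

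**Figure D1:**
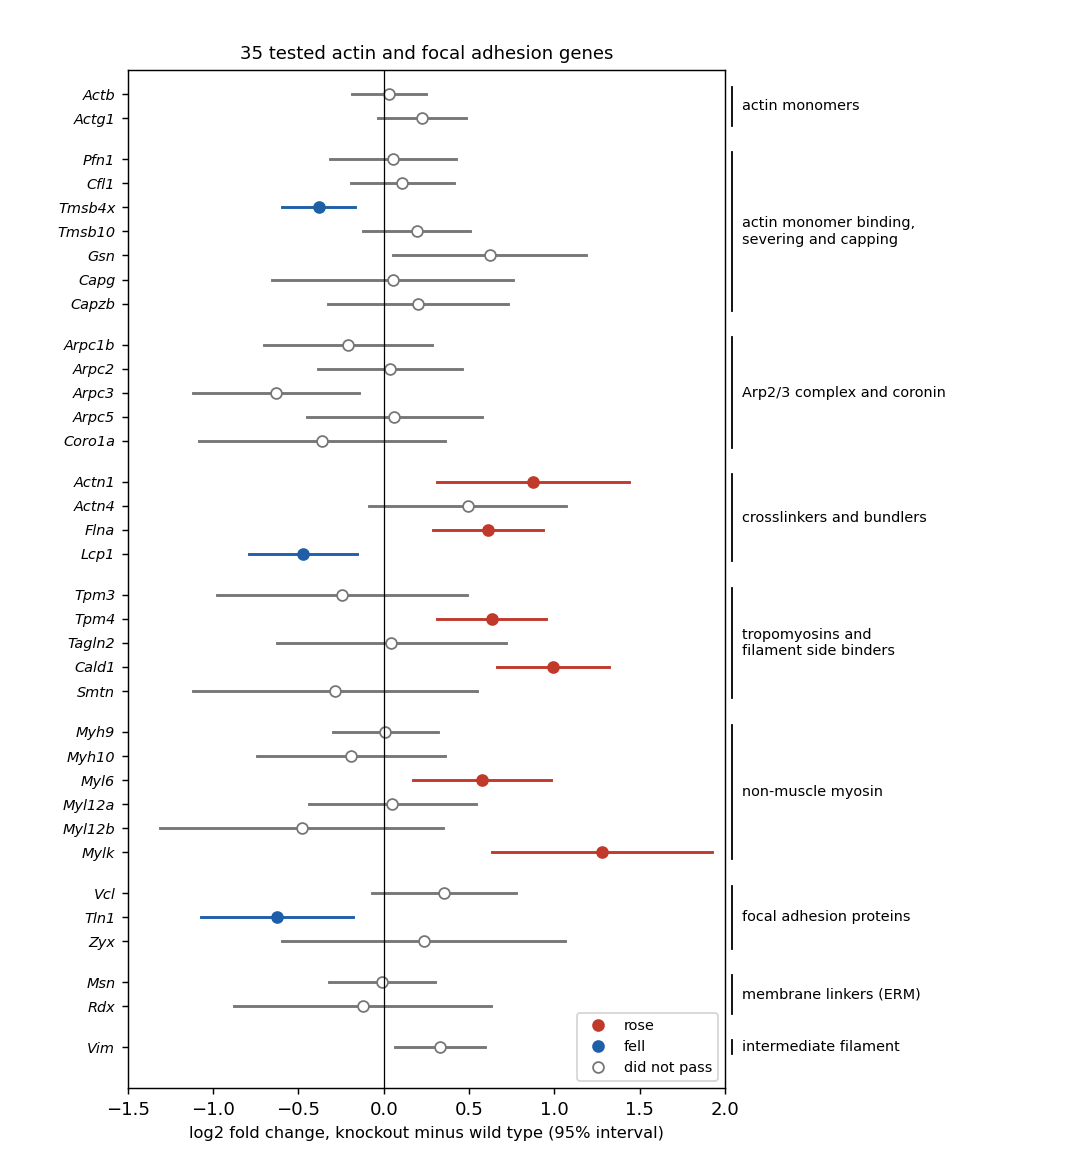
Log2 fold change (knockout minus wild type, horizontal axis) of each of the 35 tested genes, grouped by role. Points are edgeR estimates and lines their 95% intervals. The 6 filled red points rose, from Myl6 at 0.57 to Mylk at 1.28, the 3 filled blue points fell, from Tmsb4x at −0.38 to Tln1 at −0.63, and open points did not pass.

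The actin monomers themselves, beta-actin (Actb) and gamma-actin (Actg1), did not pass. Actb stood at 2321, 2082 and 1995 CPM in knockout 1, 2 and 3 and at 1978 and 2200 CPM in wild type 1 and 2. The groups overlapped, and the log2 fold change was 0.03, with a 95% interval of −0.19 to 0.25 (adjusted p = 0.899, edgeR). Actg1 stood at 1105, 1051 and 1028 CPM against 893 and 925 CPM, and all knockout libraries lay above both wild type libraries. Its log2 fold change was 0.22, with an interval of −0.03 to 0.48 (adjusted p = 0.263, edgeR). Its E-box and CArG box are those printed above.

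Per length, as deposited FPKM (fragments scaled to gene length and library size), thymosin beta-4 (Tmsb4x) was the most abundant of the 41 in both groups. It reached 2459 ± 164 FPKM (SD, n = 3) in the knockout and 3283 ± 99 FPKM (SD, n = 2) in the wild type. In the wild type, Actb followed at 819 ± 72 FPKM and Tmsb10 at 795 ± 27 FPKM, which lie within their spread of each other, and then Cfl1 at 375, Actg1 at 358 and Vim at 337 FPKM. In the knockout, Tmsb10 came second at 883 ± 68 FPKM and Actb next at 818 ± 93 FPKM, again within their spread. Cfl1 moved from rank 4 to rank 7, at 396 FPKM, and Vim, at 414 FPKM, stood next to Actg1, at 410 FPKM. Myl6 moved from rank 7, at 314 FPKM, to rank 4, at 441 FPKM, and Cald1 from rank 19, at 57.9 FPKM, to rank 12, at 112 FPKM. Talin 1 moved down from rank 28 to rank 32 and L-plastin from 12 to 17. The tensin gene Tns1 was lowest in both groups, at 1.04 and 1.12 FPKM in the knockout and wild type, and Flnc was next, at 1.96 and 1.72 FPKM. The lengths behind these values are those in the deposited tables, which differ between libraries for some genes (3611 to 5692 bases for Mylk, 912 to 2626 bases for Pdlim7 and 4232 to 8882 bases for Flnc).

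Among the 7 genes for proteins that bind monomers or sever and cap filaments, 1 fell and 6 did not pass, with a median log2 fold change of 0.11. Tmsb4x (chromosome X, 167207093 to 167213479), whose product holds actin monomers in reserve, stood at 1917, 1783 and 2039 CPM in the knockout and 2565 and 2418 CPM in the wild type libraries. Every knockout library lay below both wild type libraries, and the log2 fold change was −0.38 ± 0.11 (SE, adjusted p = 0.0057, edgeR). The related thymosin beta-10 (Tmsb10) stood at 528, 518 and 615 CPM against 479 and 494 CPM, a log2 fold change of 0.19 that did not pass (adjusted p = 0.469, edgeR). As background, thymosin beta-4 is also abundant in leukocytes. The macrophage and leukocyte marker sums given above were lower in the same knockout libraries, and whether the Tmsb4x level is tied to them was not tested. The Tmsb4x call was lost without knockout 2 (−0.32, adjusted p = 0.0864), without wild type 1 (−0.35, 0.203), without wild type 2 (−0.43, 0.10) and with no filter on low counts (−0.36, 0.0635), all in edgeR.

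Gelsolin (Gsn), which severs filaments when calcium rises, stood at 221, 157 and 166 CPM in the knockout and 113 and 122 CPM in the wild type libraries. The groups did not overlap, but the log2 fold change of 0.62 did not pass (adjusted p = 0.130, edgeR). Profilin 1 (Pfn1), cofilin 1 (Cfl1), the capping protein subunit Capzb and the gelsolin relative Capg had log2 fold changes between 0.05 and 0.20, and their groups overlapped. The intervals were −0.32 to 0.42 for Pfn1 and −0.19 to 0.41 for Cfl1.

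The Arp2/3 complex starts new filaments as branches on old ones, and coronin 1A (Coro1a) acts at such branches in leukocytes. Of the 4 subunits in the set and Coro1a, 0 rose and 0 fell in edgeR, in DESeq2 and in limma-voom, and 1 of the 5 had an unadjusted p under 0.05. That gene was Arpc3, at 178, 133 and 174 CPM in the knockout and 277 and 223 CPM in the wild type libraries. Its groups did not overlap, and the log2 fold change was −0.63, with an interval of −1.12 to −0.14 (adjusted p = 0.0630, edgeR). Arpc2 stood at 207, 299 and 320 CPM against 249 and 292 CPM, with overlap and a log2 fold change of 0.04. Arpc1b, Arpc5 and Coro1a had log2 fold changes of −0.21, 0.06 and −0.36. The values of the subunits thus differed from one another, although no difference between subunits was tested.

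The filament cross-linkers moved in both directions: of 4 tested, Actn1 and Flna rose, Lcp1 fell and Actn4 did not pass. Filamin A (Flna, chromosome X, 74223461 to 74249854), which joins filaments into gels and ties them to integrins, stood at 682, 570 and 554 CPM in the knockout and 324 and 468 CPM in the wild type libraries. Its groups did not overlap, and the log2 fold change was 0.61 ± 0.17 (SE, adjusted p = 0.0029, edgeR). Alpha-actinin 1 (Actn1, chromosome 12, 80167542 to 80260420), which spaces the filaments of stress fibres, stood at 216, 176 and 210 CPM against 127 and 90.4 CPM, again without overlap. Its log2 fold change was 0.87 ± 0.29 (SE, adjusted p = 0.0187, edgeR). Its near relative alpha-actinin 4 (Actn4) stood at 120, 195 and 170 CPM against 94.0 and 138 CPM, with overlap (log2 fold change 0.49, adjusted p = 0.274, edgeR). L-plastin (Lcp1, chromosome 14, 75131105 to 75230842), the bundling protein of leukocytes, stood at 404, 433 and 429 CPM in the knockout and 564 and 611 CPM in the wild type libraries. Every knockout library lay below both wild type libraries, and the log2 fold change was −0.47 ± 0.16 (SE, adjusted p = 0.0255, edgeR).

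None of these 3 calls held under every alternative. Flna was lost without wild type 1 (0.34, adjusted p = 0.432, edgeR) and in DESeq2 (0.60, 0.0573). Actn1 did not pass without wild type 1 (1.13, 0.0670), wild type 2 (0.66, 0.328) or knockout 3 (0.84, 0.0628), and Lcp1 without knockout 2 (−0.48, 0.0593), wild type 1 (−0.55, 0.123) or wild type 2 (−0.42, 0.301), all in edgeR. Without a filter on low counts and in DESeq2 both genes were lost as well, with adjusted p-values of 0.0606 and 0.115 for Actn1 and 0.16 and 0.126 for Lcp1. For Actn1, 451 exon bases lie opposite exons on the other strand, 363 of them of Gm47766, and for Lcp1 530 do, 311 of them opposite Gm15628. Whether reads were counted by strand is not stated in the labels or headers, and without strand the reads of a gene and its opposite partner cannot be told apart.

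Among tropomyosins and other proteins that coat or bind along filaments, Cald1 and Tpm4 rose and Tpm3, Tagln2 and Smtn did not pass. Caldesmon (Cald1, chromosome 6, 34598495 to 34775469), which binds actin, tropomyosin and myosin and restrains their sliding, stood at 788, 632 and 611 CPM in the knockout and 329 and 351 CPM in the wild type libraries. The groups were far apart, and the log2 fold change was 0.99 ± 0.17 (SE, adjusted p = 1.4e-07, edgeR), the smallest adjusted p of the 35. It passed in all 12 alternatives, with log2 fold changes of 0.88 to 1.06. Tropomyosin 4 (Tpm4, chromosome 8, 72135288 to 72153142) stood at 653, 580 and 635 CPM against 390 and 415 CPM. Its groups did not overlap, and the log2 fold change was 0.63 ± 0.16 (SE, adjusted p = 0.0016, edgeR). That call was lost without wild type 1 (0.57, adjusted p = 0.128) or wild type 2 (0.67, adjusted p = 0.0529, edgeR), and 134 of its exon bases lie opposite Gm26586. Tropomyosin 3 (Tpm3), whose counts were fractional in every library, stood at 72.1, 61.8 and 85.0 CPM against 98.7 and 74.4 CPM, with overlap and a log2 fold change of −0.24. Neither of the next 2 genes separated the groups. Transgelin 2 (Tagln2) ranged from 47.5 to 129 CPM in the knockout and from 90.4 to 103 CPM in the wild type libraries, and smoothelin (Smtn) from 32.4 to 71.3 CPM and from 47.8 to 79.9 CPM. Summed over these 5 genes, the level was 1526 ± 152 CPM (SD, n = 3) in the knockout and 989 ± 16 CPM (SD, n = 2) in the wild type.

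In the non-muscle myosin group, the kinase and a light chain rose while the heavy chains did not pass. Myosin light chain kinase (Mylk, chromosome 16, 34745199 to 35002436), which switches the motor on, stood at 221, 133 and 162 CPM in the knockout and 37.6 and 106 CPM in the wild type libraries. The groups did not overlap, but the wild type libraries stood apart from each other, with 8 and 20 counts. The log2 fold change was 1.28 ± 0.33 (SE, adjusted p = 0.0015, edgeR), the largest of the 35. It was 0.67 (adjusted p = 0.368) without wild type 1 and 2.17 (adjusted p = 5.1e-04) without wild type 2, both in edgeR. In DESeq2 it just missed the threshold (1.27, adjusted p = 0.0510). For Mylk, 772 exon bases lie opposite exons on the other strand, 548 of them of E130310I04Rik.

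The essential light chain Myl6 (chromosome 10, 128490859 to 128493886), whose CArG box is printed above, stood at 360, 380 and 352 CPM in the knockout and 254 and 234 CPM in the wild type libraries. The groups did not overlap, and the log2 fold change was 0.57 ± 0.21 (SE, adjusted p = 0.0372, edgeR). The call was lost without knockout 2 (0.55, adjusted p = 0.0847), knockout 3 (0.60, 0.0518), wild type 1 (0.62, 0.198) or wild type 2 (0.51, 0.304) in edgeR, with no filter (0.60, 0.105) and in DESeq2 (0.57, 0.156). The heavy chain of non-muscle myosin IIA (Myh9) stood at 629, 589 and 469 CPM against 470 and 648 CPM. Its groups overlapped almost completely, with a log2 fold change of 0.01 and an interval of −0.30 to 0.32. The heavy chain of myosin IIB (Myh10) stood at 111, 190 and 121 CPM against 132 and 191 CPM, also with overlap (log2 fold change −0.19). The regulatory light chains Myl12a and Myl12b had log2 fold changes of 0.05 and −0.48 and did not pass, and their sum is given with their sequences.

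**Figure D2:**
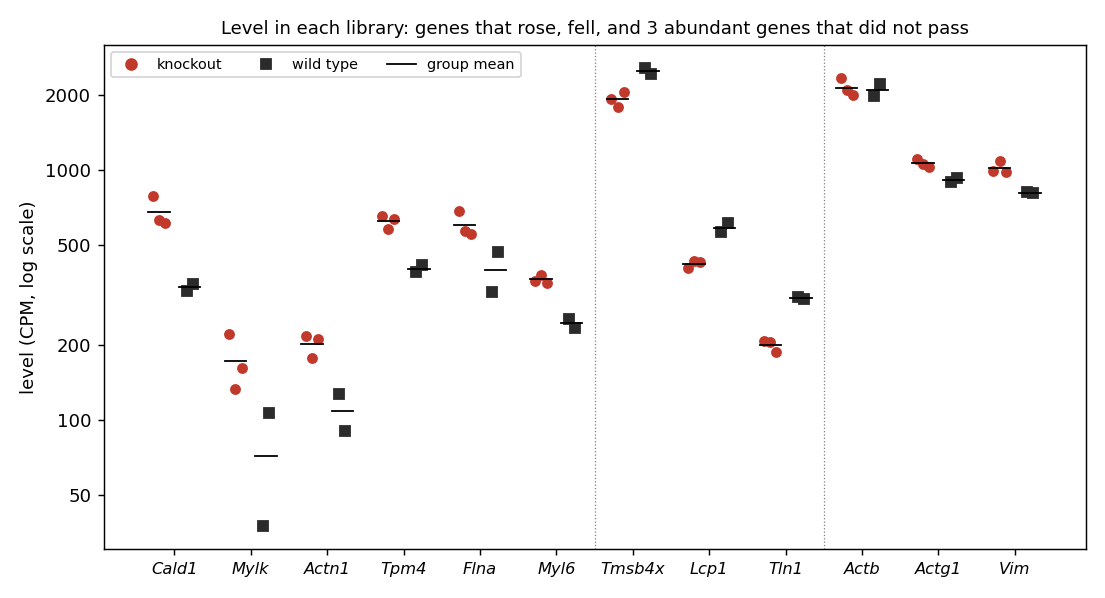
Level in each library (CPM, log scale) of the 6 genes that rose, the 3 that fell, and Actb, Actg1 and Vim, which did not pass. Circles are knockout and squares wild type libraries, and bars are group means. The 2 wild type values of Mylk, 37.6 and 106 CPM, lie farthest apart, while the groups of Actb overlap.

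Of the focal adhesion proteins, 3 were tested, and 1 fell and 2 did not pass. Talin 1 (Tln1, chromosome 4, 43531513 to 43562583), which activates integrins and ties them to actin, stood at 207, 204 and 186 CPM in the knockout and 310 and 303 CPM in the wild type libraries. The groups lay well apart, and the log2 fold change was −0.63 ± 0.23 (SE, adjusted p = 0.0389, edgeR). This was the least stable of the 9 calls: it was lost without knockout 2 (−0.64, adjusted p = 0.0681), knockout 3 (−0.58, 0.101), wild type 1 (−0.63, 0.226) or wild type 2 (−0.65, 0.194), with no filter (−0.60, 0.156), all in edgeR, and in DESeq2 (−0.63, 0.154). In 360 of its exon bases Tln1 lies opposite Creb3, and without strand the reads of both cannot be told apart there. Vinculin (Vcl), which reinforces the talin link under load, stood at 317, 266 and 344 CPM in the knockout and 197 and 292 CPM in the wild type libraries. Its groups overlapped, with a log2 fold change of 0.35 (adjusted p = 0.283, edgeR), and 2090 of its exon bases lie opposite Ap3m1. Zyxin (Zyx), which gathers at strained stress fibres, stood at 62.5, 71.3 and 60.7 CPM against 51.7 and 58.5 CPM, without overlap but also without passing (log2 fold change 0.23, adjusted p = 0.773, edgeR).

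The linkers between actin and the plasma membrane did not pass. Moesin (Msn), the most abundant of the 3 per length at 97.2 and 99.4 FPKM in the knockout and wild type, stood at 519, 566 and 481 CPM in the knockout and 587 and 457 CPM in the wild type libraries. The knockout libraries lay between the 2 wild type libraries, and the log2 fold change was −0.01, with an interval of −0.32 to 0.30. Radixin (Rdx) stood at 67.3, 71.3 and 72.8 CPM against 98.7 and 53.1 CPM, again within the wild type range (log2 fold change −0.12). Vimentin (Vim), the intermediate filament protein of mesenchymal cells and of macrophages, stood at 990, 1089 and 983 CPM against 813 and 808 CPM. The groups did not overlap, but the log2 fold change of 0.33 did not pass (adjusted p = 0.0728, edgeR). It passed without knockout 1 (0.36, adjusted p = 0.0249) and without scaling of the library totals (0.35, adjusted p = 0.0424).

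The 6 genes with too few counts for the fit were compared over summed counts with an exact Poisson test, two-sided, whose intervals cover counting error only. The LIM protein Pdlim7, which binds alpha-actinin, had 26 counts in the knockout and 5 in the wild type, a ratio of 3.13 after scaling (95% interval 1.18 to 10.4, exact p = 0.0147). The bundling protein fascin (Fscn1) had 25 against 6, a ratio of 2.51 (interval 1.01 to 7.48, exact p = 0.0406). Adjusted over the 6 genes, these p-values were 0.0885 and 0.122, so neither passed. Paxillin (Pxn), a focal adhesion scaffold, had 14 counts against 17, a ratio of 0.496 (0.226 to 1.07). Filamin C (Flnc) had 16 against 5 (1.93, 0.675 to 6.73), ezrin (Ezr) 14 against 7 (1.20, 0.455 to 3.53) and tensin 1 (Tns1) 10 against 7 (0.861, 0.296 to 2.66). The intervals of Pxn, Flnc, Ezr and Tns1 include 1. With so few counts, single libraries moved these ratios. Pxn was 0.363 (0.127 to 0.920, exact p = 0.0232, unadjusted) without knockout 2, 0.412 (exact p = 0.0434, unadjusted) without knockout 1 and 0.733 without knockout 3. Ezr was 0.791 without wild type 1 and 2.24 without wild type 2, and Fscn1 was 1.77 without wild type 1 and 4.0 without wild type 2.

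Ratios of related members within a library do not depend on how libraries are scaled, and 10 pairs were compared. With 3 against 2 libraries, the exact two-sided permutation test cannot give a p below 0.2, so no pair could pass, and the smallest adjusted p over the 10 pairs was 0.4. Thymosin beta-10 to beta-4 count ratios were 0.276, 0.291 and 0.302 for knockout 1, 2 and 3 against 0.187 and 0.204 for wild type. This ratio was higher in every knockout library, by 0.57 on the log2 scale (exact permutation p = 0.2). Tpm4 to Tpm3 ratios were 9.07, 9.38 and 7.48 against 3.95 and 5.57, a log2 difference of 0.87, also without overlap. Tpm3 had only 13 to 21 counts per library, fractional in each, so this ratio depends in part on how shared reads were divided. Fascin to L-plastin ratios were 0.119, 0.0659 and 0.0849 against 0.0167 and 0.0348, a log2 difference of 1.86 that rests on 2 and 4 fascin counts in the wild type libraries. Actg1 to Actb ratios were 0.476, 0.505 and 0.515 against 0.451 and 0.420, a small shift of 0.19 without overlap. Myl12b to Myl12a was lower in each knockout library, by −0.48, but its value depends on how shared reads were divided. In the other 5 pairs (Actn1 to Actn4, Flnc to Flna, Myh10 to Myh9, Ezr to Msn and Rdx to Msn) the groups overlapped, with log2 differences of −0.23 to 0.43. Lack of overlap is common with so few libraries. For the levels of single tested genes, all knockout libraries lay above the wild type libraries in 21.2% and below them in 21.6%. No such share was computed for ratios.

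**Figure D3:**
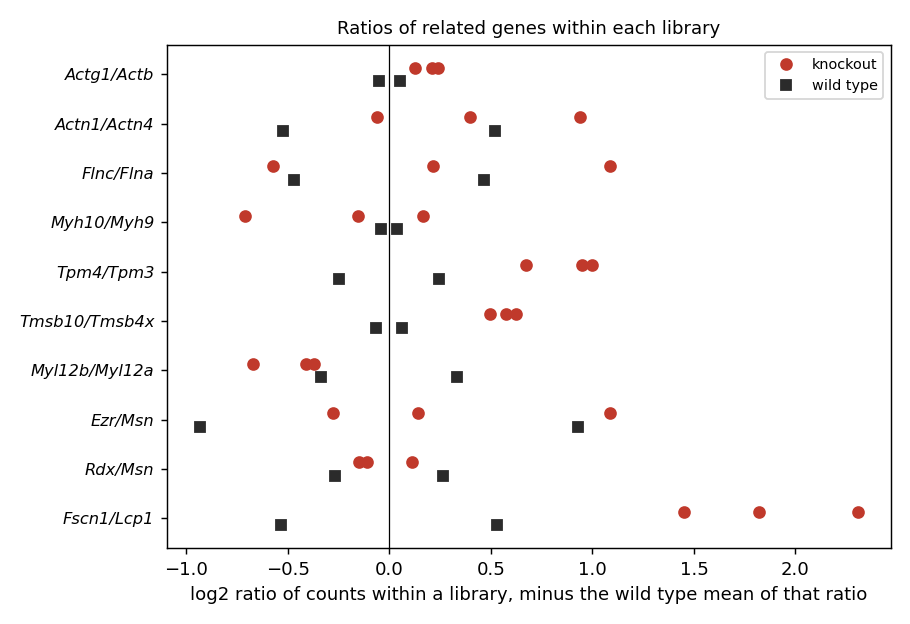
Log2 ratio of the counts of 2 related genes in each library, minus the wild type mean of that ratio (horizontal axis), for the 10 pairs. Circles are knockout and squares wild type libraries. The groups do not overlap for Actg1/Actb, Tpm4/Tpm3, Tmsb10/Tmsb4x, Myl12b/Myl12a and Fscn1/Lcp1, where the differences of the means were 0.19, 0.87, 0.57, −0.48 and 1.86. Lack of overlap is common with so few libraries, and no pair could pass the test.

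Other genes of the same machinery were taken from lists made by function, with earlier results of these data known. Beside each count below stand the shares over all tested genes, of which 8.19% rose and 8.14% fell. Of 21 other focal adhesion genes tested, 4 rose and 1 fell, with a median of 0.36. Palladin (Palld), an alpha-actinin partner in stress fibres, stood at 216, 166 and 235 CPM in the knockout and 94.0 and 21.3 CPM in the wild type libraries (log2 fold change 1.79, adjusted p = 1.6e-06, edgeR). The zyxin relative Lpp stood at 135, 143 and 109 CPM against 56.4 and 53.1 CPM (1.21, adjusted p = 0.0106, edgeR). Fermt2 (kindlin 2) and Git1 also rose. Kindlin 3 (Fermt3), the kindlin of blood cells, fell, from 150 and 90.4 CPM in the wild type to 52.8, 66.6 and 36.4 CPM in the knockout (−1.24, adjusted p = 0.0087, edgeR). Palld was 3.23 without wild type 1 and 1.13 without wild type 2, where it missed the threshold (adjusted p = 0.0503). Lpp was lost without either wild type library (adjusted p = 0.121 and 0.123), and Fermt3 without knockout 3 (−1.02, 0.0828) or wild type 1 (−0.83, 0.388), all in edgeR. In DESeq2, Lpp (adjusted p = 0.0850) and Fermt3 (0.111) did not pass.

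The list of other Arp2/3, WASP and WAVE genes gave 1 fall among 16 tested genes, 15 of which did not pass, with a median of −0.21. Besides subunits and activators, the tested genes include Coro1b, Coro1c, Cttn, Hcls1 and Gmfb. The fall was Abi3, a WAVE complex subunit of blood cells, at 476, 623 and 583 CPM in the knockout and 1292 and 1090 CPM in the wild type libraries (log2 fold change −1.09, adjusted p = 1.3e-13, edgeR). However, 2913 of its exon bases lie opposite Zfp652, and without strand those reads cannot be told apart. Actr2 and Actr3, the actin-like core of the complex, had log2 fold changes of −0.45 and −0.05 and did not pass. Among 16 other genes of filament turnover, 2 formins fell and 14 genes did not pass, with a median of −0.08. The formins were Daam2 (−1.13, adjusted p = 1.3e-04) and Diaph1 (−1.19, adjusted p = 0.0395), in edgeR. Daam2 was lost without wild type 1 (−0.90, adjusted p = 0.0862), and Diaph1 without any of 4 libraries, for example without knockout 1, which held 2 of its counts (−0.76, adjusted p = 0.239). Diaph1 also missed the threshold with no filter (0.167) and in limma-voom (0.0802).

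Among 20 other bundlers, spectrins and myosins, 2 calponins rose and 18 genes did not pass, with a median of 0.35. Calponin 3 (Cnn3), a filament binder of non-muscle cells, stood at 231, 185 and 174 CPM in the knockout and 9.40 and 53.1 CPM in the wild type libraries (2.68, adjusted p = 3.2e-10, edgeR). Calponin 2 (Cnn2) stood at 202, 176 and 223 CPM against 98.7 and 79.7 CPM (1.16, adjusted p = 0.0016, edgeR). Cnn3 was 1.85 without wild type 1 and 4.30 without wild type 2 and passed in both, while Cnn2 was lost without that library (1.02, adjusted p = 0.0850). Of Cnn3, 538 exon bases lie opposite Gm42928.

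The smooth muscle contractile genes, which build the force-bearing bundles of smooth muscle and myofibroblasts, were left out of the 41. All 8 that were tested rose, with a median log2 fold change of 2.13, against 6 of 35 and 0.05 for the general actin genes. However, Actg2, Cnn1 and Lmod1 passed the count filter only through the knockout libraries, so they could hardly have fallen. Their counts in wild type 1 and 2 were 3 and 4, 0 and 3, and 1 and 2. Their log2 fold changes of 2.65, 2.62 and 2.54 are part of that count and median. Smooth muscle actin (Acta2) stood at 1278, 975 and 1036 CPM in the knockout and 254 and 271 CPM in the wild type libraries (2.06, adjusted p = 9.2e-33, edgeR), where Actb, the actin of all cells, had 0.03. The smooth muscle regulatory light chain Myl9 had 2.20 (adjusted p = 9.5e-10, edgeR), where the non-muscle regulatory light chains Myl12a and Myl12b had 0.05 and −0.48. The essential light chain Myl6 had 0.57. Both lists come from the same libraries, and the difference between them was not tested. Of 8 tested genes around SRF, its cofactors and the YAP pathway, Ctgf (0.68), Cyr61 (1.20) and Amotl2 (1.47) rose, and Fos (−2.12) and Egr1 (−1.09) fell, while Srf itself was too low to test. Ctgf was lost without either wild type library (adjusted p = 0.0963 and 0.0838, edgeR), Cyr61 also without knockout 1 (0.0553), and Egr1 without knockout 1 (0.0757), knockout 2 (0.115) or wild type 2 (0.392). In DESeq2, Cyr61 (adjusted p = 0.0532) and Egr1 (0.157) did not pass, nor did Egr1 with no filter (0.109).

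**Figure D4:**
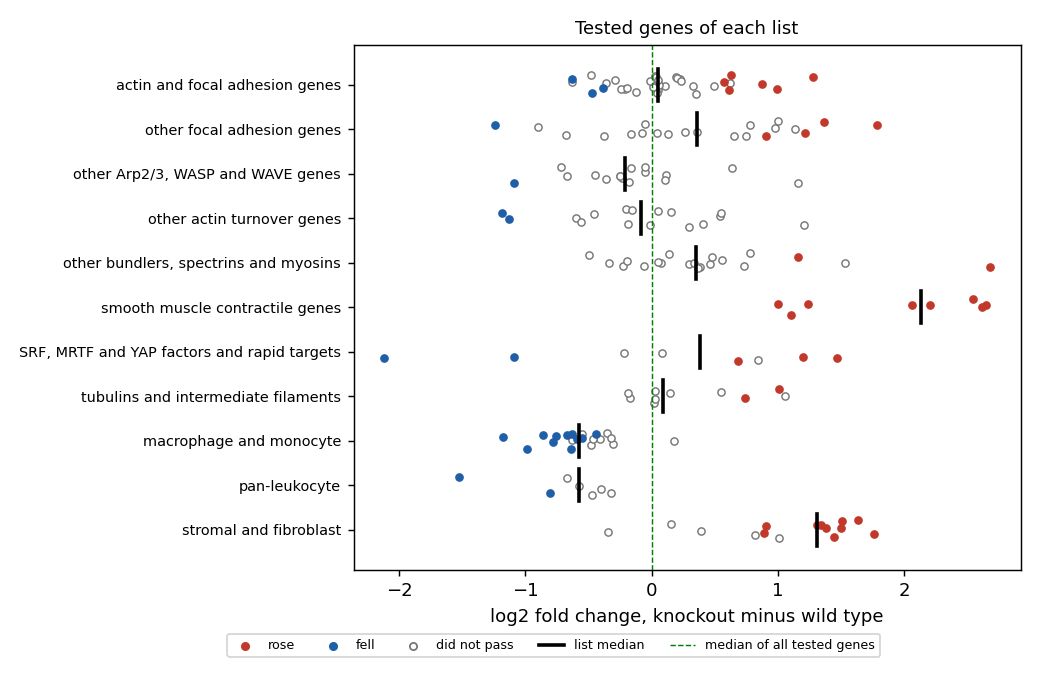
Log2 fold change (knockout minus wild type, horizontal axis) of every tested gene of each list shown, 1 point per gene, with the list median as a bar and the median of all tested genes, 0.01, as a dashed line. The general actin and focal adhesion genes centre on 0.05, the smooth muscle contractile genes on 2.13, the stromal markers on 1.31 and the macrophage markers on −0.57.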

How the data were processed

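RNA of 3 Bmal1-knockout and 2 wild type libraries was compared. For each library, the authors' deposited table gives every gene's expected count, FPKM and length in bases, per the file headers. The tools HISAT2, StringTie, Bowtie2 and RSEM, and mm10 as the build, are listed in the submitters' processing notes with neither versions nor roles. Strand setting and read length are not given in the sources used here. Listed genes numbered 10785 to 11493 per library. Genes that a table does not list count as 0 there, and 5 genes without a name, at most 0.0034% of counts, were left out. The deposited expected counts were whole, within 0.005, for 93.8% to 94.2% of values and were rounded.

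All named genes were fitted in edgeR 4.0.16 (R 4.3.3): filterByExpr (minimum count 10, minimum total 15), TMM scaling, a robust quasi-likelihood fit on genotype, with p-values adjusted by Benjamini-Hochberg over 3710 genes (threshold 0.05). A gene could pass the filter through 1 group alone, as Actg2, Cnn1, Lmod1 and Fermt2 did through the knockout and Fos through the wild type. Such a gene could hardly move the other way. CPM are relative to TMM-scaled totals over tested genes. Standard errors come from the quasi-likelihood F and intervals are 95%. Leaving out a wild type library leaves 1, which is then assumed to vary like the knockout. DESeq2 1.42.0, limma 3.58.1 (voom), other scalings, no filter, a replicate block and leaving out each library were alternatives. The scripts were tested on simulated data. The 41 genes and all lists were chosen with earlier results of these data known. Values in every library are given for members past the test and the highest of each role, and for some others; of each other list, up to 2 genes per direction by adjusted p. Gsn, Arpc3, Actg1, Tmsb10, Actn4, Tpm3, Myh10, Zyx, Rdx, Actr2, Actr3, Srf, Amotl2, Fermt2, Git1 and the marker genes named were picked outside this rule. Opposite exons (at least 100 bases) and shared 50-base words come from GENCODE M21, gene coordinates and promoters from RefSeq GRCm38.p6. 1 further list is not reported here.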

Additional observations from a re-analysis of the deposited data

How the results depend on the processing

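The number of genes past the test was 606 and ranged from 298 to 610 with each library left out, the rises among the actin and focal adhesion genes (6) from 1 to 7, the falls (3) from 0 to 3 and the median log2 fold change (0.05) from 0.029 to 0.18. The lowest counts came without wild type 1 (298 genes, 1 rise, 0 falls) and wild type 2 (299 genes, 3 rises, 0 falls), and there were 0 falls without knockout 2. DESeq2 called 280 genes, with 2 rises (Cald1 and Tpm4) and 1 fall (Tmsb4x). With no filter on low counts there were 4 rises and 0 falls. RLE and upper quartile scaling and limma-voom gave the same 6 rises and 3 falls, and unscaled totals added Vim. The causes were not tested. All 9 called members kept their sign in all 12 alternatives.

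The libraries carry replicate numbers that the labels do not tie to a shared source. The deviations of same-numbered libraries from their group means correlated at −0.01 and 0.03. With only 2 wild type libraries, their deviations mirror each other, so these values cannot decide whether same-numbered libraries share a source. With a replicate block, 441 genes passed, and 5 members rose and 2 fell, Actn1 and Tln1 being lost. Of the other genes named, Fermt3 (−1.0, adjusted p = 0.117), Lmna (0.93, 0.12) and Tuba1a (0.70, 0.111) were lost with it.

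Totals of 211623 to 281990 counts per library limit the test to the more abundant genes: 10446 of the named genes, 6 members among them, had too few counts.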

Other observations

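Among genes that the deposited tables place under the Gene Ontology term stress fiber, and leaving out the 41 genes, 19 were tested, 6 rose (Acta2, Cnn2, Fermt2, Tpm1, Sept11 and Palld) and 1 fell (Pstpip1), with a median log2 fold change of 0.39. For lamellipodium, 63 were tested, 7 rose and 2 fell, with a median of 0.11. For focal adhesion, 201 were tested, 22 rose and 8 fell, with a median of 0.15. For the Arp2/3 complex, 3 were tested and did not pass, with a median of −0.25. Of all tested genes, 8.19% rose and 8.14% fell. The terms overlap, and several of their genes are also in the lists of the report.

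Of 10 tested tubulin and intermediate filament genes, 2 rose and 8 did not pass, with a median of 0.09. Lamin A (Lmna), of the nuclear envelope, stood at 125, 124 and 146 CPM in the knockout and 47.0 and 85.0 CPM in the wild type libraries (log2 fold change 1.01, adjusted p = 0.0314, edgeR). The alpha-tubulin gene Tuba1a stood at 207, 209 and 231 CPM against 160 and 95.7 CPM (0.74, adjusted p = 0.0443, edgeR). Both were lost without knockout 2, knockout 3 or wild type 1, where Lmna was 1.06, 0.92 and 0.61 and Tuba1a 0.77, 0.68 and 1.15, and Tuba1a also without wild type 2 (0.43). Both also missed the threshold with no filter (adjusted p = 0.0950 and 0.118) and in DESeq2 (0.167 and 0.183).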
